A study of Mus musculus with 42 samples.

Results

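Hip1 and Hip1r were described in RNA immunoprecipitation sequencing (RIP-seq) of Tnrc6a in mouse embryonic stem cells. They are the rows of both deposited count tables with these gene symbols, 2 of 18825 rows in experiment 1 and 2 of 19866 in experiment 2, with the identifiers ENSMUSG00000039959 (Hip1) and ENSMUSG00000000915 (Hip1r). The pair was chosen from these data, because both RNAs were more enriched in the immunoprecipitate (IP) of cells without Ago2, in those cells alone, while their input RNA was not changed. Values of the contrasts that served this choice are therefore given as descriptions, without a test. All cells were of a 129S6/SvEvTac stem cell line with the reporter yGlob [GFP_5xT71BS] and stably transfected FLAG-Cas9::T2A::Blasticidin. The untagged controls carried nothing further, the tagged cells carried HA-AVI-Tnrc6a, and the knockout cells carried HA-AVI-Tnrc6a together with Trim71-/- (here Trim71KO) or Ago2-/- (here Ago2KO). RNA was sequenced from the lysate (input) and from anti-HA beads (IP), in 6 groups in experiment 1, which had no Ago2KO cells, and in 8 groups in experiment 2, with 3 libraries per group and 42 in all. The 3 libraries stand for dishes grown in parallel, so p-values measure the spread between dishes. The labels do not say whether a knockout line is 1 clone, and a difference between lines cannot be told apart from one of genotype.

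HIP1, huntingtin interacting protein 1, and its relative HIP1R are accessory proteins of clathrin-coated vesicles. Each has an N-terminal ANTH domain that binds membrane phosphoinositides, a central coiled coil that binds clathrin and lets the proteins pair, and a C-terminal talin-like domain that binds actin, so that they link the coat to the actin cytoskeleton during endocytosis. Tnrc6a is a GW182-family protein. Argonaute proteins such as Ago2, guided by microRNAs, recruit it to mRNAs, where it brings in the deadenylation machinery. Trim71 is an RNA-binding protein of early embryos and stem cells. RNA recovered with tagged Tnrc6a above the recovery from untagged cells is called tag-specific enrichment here.

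Library totals ran from 12587257 to 23657840 counts in experiment 1 and from 16296447 to 21026552 in experiment 2. Input RNA held all 6 stem cell markers (Pou5f1, Nanog, Sox2, Zfp42, Esrrb and Klf4) at group means of 438.5 to 1667 CPM, the counts of a gene scaled to library size. The summed level of the 4 primitive endoderm markers (Gata6, Gata4, Sox17 and Pdgfra), none of them at 0, ran from 5.29 to 41.6 CPM. Of the feeder markers, Col1a1 ran from 2.10 to 5.06 CPM and Thy1 from 18.7 to 55.8, while Col1a2 and S100a4 have no row. Of the neuronal markers, Tubb3 stood at 61.2 to 81.1 CPM, Rbfox3 at no more than 2.40 and Snap25, with a row in experiment 2 only, at no more than 0.457. In bulk RNA, fewer cells of a type and less RNA per cell cannot be told apart. Ago2 RNA in the input of experiment 2 was 353 ± 34.9 CPM (mean ± SD, n = 3) in tagged and 162 ± 4.76 in Ago2KO cells. The libraries labelled Trim71KO did not hold less Trim71 RNA than tagged ones (281.8 ± 3.18 against 240.6 ± 21.2 CPM in experiment 1), so a gene total does not check that label. The 3 tagged input libraries of experiment 1 differed widely, for Ago2 between 178.9 and 357.5 CPM.

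Both genes lie on mouse chromosome 5, in RefSeq annotation of GRCm38.p6. Hip1 spans 138828 bases (chr5:135406496-135545323) and Hip1r spans 29614 bases (chr5:123973602-124003215), 11.4 Mb apart. The windows from 250 bases before to 50 after a start site are shown as a description of both genes, from the given RefSeq table (GRCm38.p6). Any relation of these windows to the IP values was not tested. Capitals mark GGGCGG or its reverse complement CCGCCC, the core of the GC box that Sp1-type factors bind. The Hip1r window is chr5:123973378-123973677, plus strand, and the Hip1 window at the gene's outer end is chr5:135545073-135545372, minus strand. Both are printed 5′ to 3′ on the gene's strand.
Hip1r: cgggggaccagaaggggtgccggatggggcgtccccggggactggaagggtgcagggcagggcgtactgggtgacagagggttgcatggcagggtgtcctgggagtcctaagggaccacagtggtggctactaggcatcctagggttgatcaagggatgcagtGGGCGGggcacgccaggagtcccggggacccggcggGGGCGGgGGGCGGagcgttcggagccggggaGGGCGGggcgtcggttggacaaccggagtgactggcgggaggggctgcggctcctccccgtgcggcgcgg
Hip1: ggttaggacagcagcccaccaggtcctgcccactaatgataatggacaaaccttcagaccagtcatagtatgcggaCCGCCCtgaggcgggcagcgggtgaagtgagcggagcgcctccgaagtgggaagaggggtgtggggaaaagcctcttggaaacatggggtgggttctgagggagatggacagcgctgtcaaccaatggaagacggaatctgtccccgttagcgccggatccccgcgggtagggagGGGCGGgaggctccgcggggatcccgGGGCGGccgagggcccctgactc

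The Hip1r window held 4 matches to GGGCGG on either strand and the Hip1 window held 3. A second Hip1 start, chr5:135489180-135489479 on the minus strand, held 2 matches in its window. Of all 32851 RefSeq promoter windows of this length, 35.7% held at least 1. The windows were rich in G and C, with 72.3% in Hip1r and 64.0% and 71.7% in the Hip1 windows, against a median of 52.7% over all. They held 25, 20 and 28 CG pairs, against a median of 7. TATAAA occurred in none of the 3 windows and in 13.6% of all. CCAAT occurred once, in the outer Hip1 window, and in 37.4% of all. These matches are descriptions of the letters and not binding sites.

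In the Ago2KO IP, RNA of both genes stood far above every other library of experiment 2. Hip1 RNA measured 395.5, 273.9 and 204.6 CPM in the 3 Ago2KO IP libraries, from 7329, 4922 and 3583 counts. In tagged cells, Hip1 measured 66.5, 58.1 and 57.2 CPM in the IP. All 3 Ago2KO libraries lay above all tagged ones, and the lowest of them was 3.08 times the highest of the other 21 libraries of experiment 2, which ran from 25.4 to 66.5 CPM with a median of 42.2. Outside the Ago2KO IP, a library of either experiment held 404 to 1130 counts of Hip1 and 303 to 945 of Hip1r.

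Hip1r RNA had the same order of replicates within the Ago2KO IP. It measured 303.9, 207.6 and 177.1 CPM in the Ago2KO IP, from 5632, 3731 and 3102 counts. In the tagged IP it measured 40.9, 42.0 and 39.6 CPM. The groups did not overlap, and the lowest Ago2KO IP library was 3.50 times the highest of the other 21, which ran from 28.8 to 50.6 CPM with a median of 34.8. The mean CPM of the Ago2KO IP was 4.81 times that of the tagged IP for Hip1 and 5.62 times for Hip1r. Against the untagged IP, the bead background, the ratios were 7.55 and 7.09.

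**Figure D1:**
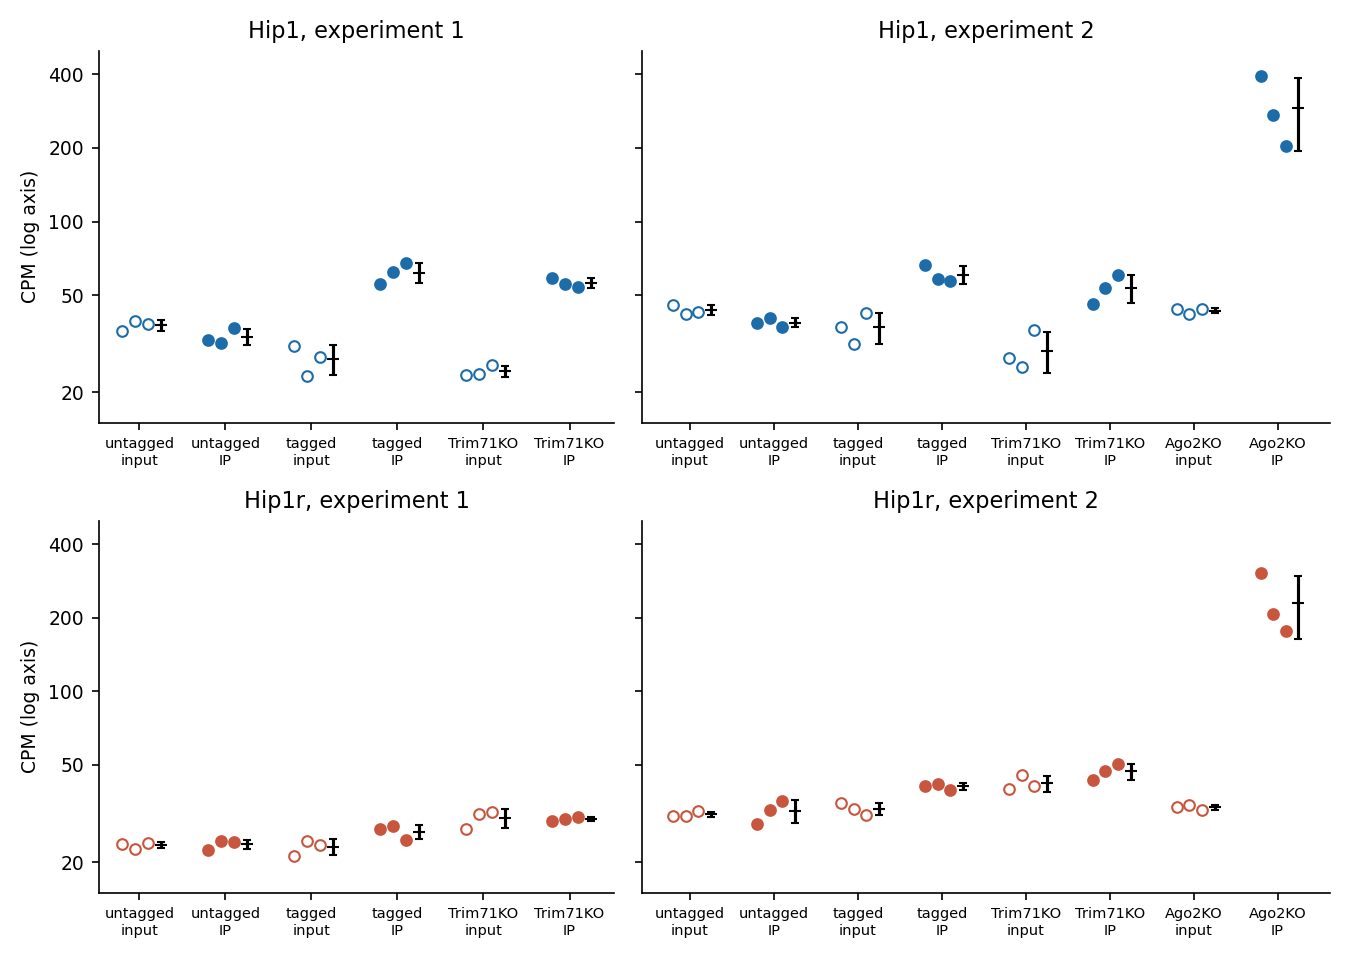
CPM of Hip1 (blue) and Hip1r (red) in each library, on a log axis, for input (open points) and IP (filled points) of each genotype, in replicate order within a group; the bar beside each group is mean ± SD, n = 3. The 3 Ago2KO IP libraries sit between 204.6 and 395.5 CPM for Hip1 and between 177.1 and 303.9 for Hip1r, above all others.

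The input of the same cells held no such excess. Hip1 in Ago2KO input measured 43.9, 42.0 and 43.9 CPM, against 37.0, 31.6 and 42.2 in tagged input. Hip1r measured 33.6, 34.4 and 32.8 CPM, against 34.8, 33.0 and 31.2. For each gene the groups overlapped. The log2 change of input RNA, which the choice of the genes used, was 0.23 for Hip1 (SE 0.16) and 0.03 for Hip1r (SE 0.13). Of all genes tested, 6.96% were called changed in this comparison of inputs. The IP held 6.48 times the input level of Hip1 in Ago2KO cells and 6.63 times that of Hip1r, while the tagged cells had ratios of 1.65 and 1.24. Per library, with each IP set against the mean log2 input of its group, the ratio in Ago2KO cells was 9.13, 6.32 and 4.72 for Hip1. For Hip1r it was 9.02, 6.16 and 5.26. The lowest of these lies above the highest ratio in tagged cells, 1.81 for Hip1 and 1.27 for Hip1r.

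Ago2-dependent enrichment is the log2 of IP over input in Ago2KO cells less that of tagged cells, from the fit of all genes. It was 2.04 for Hip1 (SE 0.22, 4.12-fold) and 2.46 for Hip1r (SE 0.18, 5.52-fold). Set against untagged cells instead, the values were 2.92 (SE 0.22) and 2.73 (SE 0.18). Set against the cells labelled Trim71KO, Ago2KO cells were higher by 3.73-fold for Hip1 and 6.10-fold for Hip1r. These 3 contrasts share the Ago2KO libraries.

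The Ago2KO IP libraries also differed among themselves more than other groups did. The coefficient of variation over the 3 libraries was 33.2% for Hip1 and 28.8% for Hip1r, against 2.55% to 18.8% and 1.91% to 10.6% over the other 13 groups of both experiments. Replicate 1 was the highest library for both genes, at 1.93 times replicate 3 for Hip1 and 1.72 times for Hip1r. Tnrc6a RNA, the mRNA of the tagged protein, had the same order, at 31190, 17220 and 14790 CPM in the Ago2KO IP. Its order was also the same in the tagged IP, at 24220, 17190 and 12950 CPM. There Hip1 followed it, at 66.5, 58.1 and 57.2 CPM, and Hip1r did not, at 40.9, 42.0 and 39.6 CPM. In the Trim71KO IP Tnrc6a measured 21900, 17790 and 13720 CPM, while Hip1 and Hip1r ran in the reverse order, at 46.2, 53.6 and 60.5 CPM and at 43.3, 47.2 and 50.6 CPM. In the untagged IP it ran from 74.3 to 90.4 CPM. The part of the Tnrc6a level in the spread of Hip1 and Hip1r was not tested. Without Ago2KO IP replicate 1 the Ago2-dependent change was 1.76 for Hip1 and 2.21 for Hip1r. The summed primitive endoderm markers in input were 14.4 CPM in tagged, 7.81 in Ago2KO and 5.29 in Trim71KO cells, so that it was lower still in Trim71KO cells, whose IP levels are given below. Their part in the result was not tested.

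Among all genes, 19778 were tested for Ago2-dependent enrichment, of which 3.77% were called lower and 0.384% called higher, 76 genes (edgeR, adjusted p under 0.05). Hip1 and Hip1r were picked from this upper side. Of the 68 called higher with a mean log2 CPM of at least 2, Hip1r had the largest change and Hip1 the next. Below them came Fhl4 at 1.65 (SE 0.45), a LIM-domain gene with only 6.73 CPM in the Ago2KO IP against 3.11 in the tagged IP. Tnfsf9, a TNF-family ligand, followed at 1.03 (SE 0.28), with 32.7 against 21.1 CPM. The remaining genes of the 10 largest changes lay between 0.80 and 0.90, among them Herpud1, a gene of the endoplasmic reticulum stress response, at 0.82 with 94.8 against 55.4 CPM. Only 11 of the 76 changed by 2-fold or more. With the limits on level and call removed, 30 genes had a larger change than Hip1r and 64 a larger one than Hip1.

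**Figure D2:**
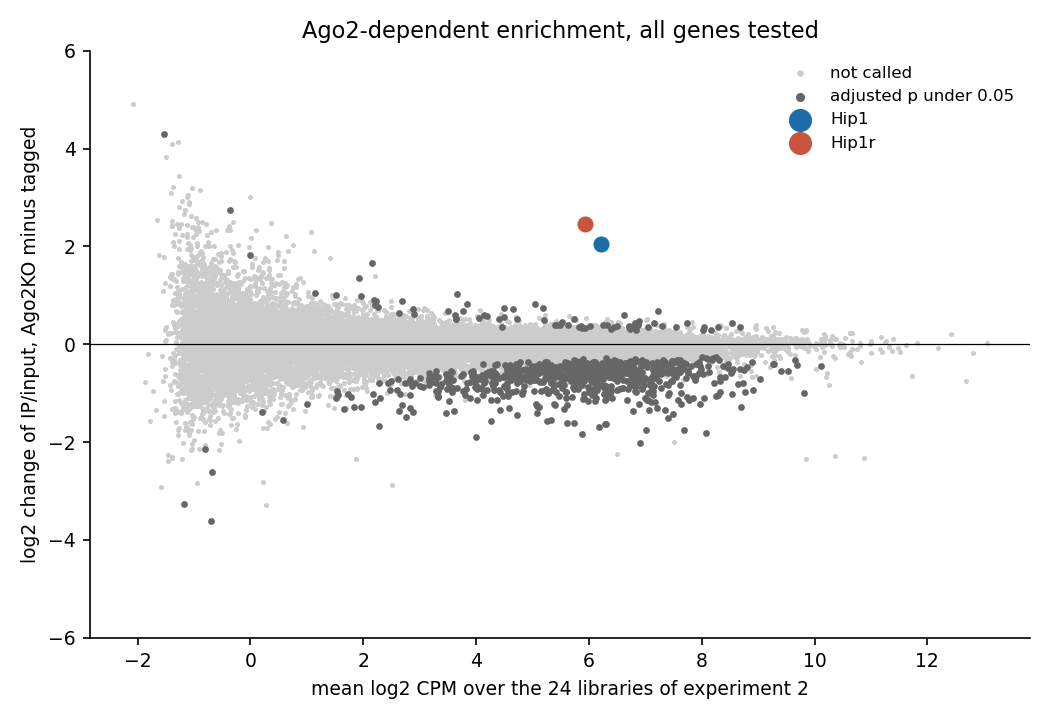
Log2 change of IP over input in Ago2KO minus tagged cells (y axis) against the mean log2 CPM over the 24 libraries of experiment 2 (x axis) for each gene tested, dark where the adjusted p was under 0.05. Hip1 at 2.04 and Hip1r at 2.46 stand apart from other genes of their level, and the larger changes lie at low CPM.

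In cells with Ago2, Hip1 RNA was enriched with the tag, whereas Hip1r did not pass the test. Hip1 in experiment 1 measured 55.6, 62.2 and 67.4 CPM in the tagged IP against 32.6, 31.8 and 36.5 in the untagged IP, with no overlap. In input the order was reversed, at 31.0, 23.3 and 27.9 CPM in tagged and 35.5, 39.2 and 38.1 in untagged cells. Tag-specific enrichment of Hip1 was 1.33 on the log2 scale (SE 0.15, 2.52-fold, edgeR adjusted p 4.29e-08). In experiment 2 it was 0.88 (SE 0.22, 1.84-fold, edgeR adjusted p 0.00383). There the tagged IP values given above lay over the untagged ones of 38.6, 40.3 and 36.9 CPM. The tagged libraries of both experiments also entered contrasts that served the choice of the genes, through Ago2-dependent enrichment in experiment 2 and Trim71-dependent enrichment in both, so these tests are not independent of it.

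Hip1r was not called in either experiment. It measured 27.3, 28.1 and 24.6 CPM in the tagged IP of experiment 1 and 22.4, 24.4 and 24.2 in the untagged IP, so that the lowest tagged library stood just above the highest untagged one. Its tag-specific enrichment was 0.20 (SE 0.14, 95% interval -0.07 to 0.46, edgeR adjusted p 0.216). In experiment 2 it was 0.26 (SE 0.18, 95% interval -0.09 to 0.61, edgeR adjusted p 0.309), with 28.8, 32.7 and 35.7 CPM in the untagged IP. Thus 1 of the 2 genes was called higher in each experiment, where 28.1% of all genes tested in experiment 1 and 18.9% in experiment 2 were. The call of Hip1 was present in each of 12 fits per experiment that left out 1 library and that of Hip1r in none. The difference between the genes was not tested.

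Neither RNA was called enriched on the beads of cells without the tag. In untagged cells the log2 of IP over input in experiment 1 was -0.16 for Hip1 (SE 0.10, edgeR adjusted p 0.358) and 0.01 for Hip1r (SE 0.10, edgeR adjusted p 0.973). In experiment 2 it was -0.17 (SE 0.16, edgeR adjusted p 0.728) and 0.05 (SE 0.13, edgeR adjusted p 0.923). Neither gene was called in either experiment, where 12.1% and 0.728% of all genes were. At unadjusted p, all 4 values were above 0.05. DESeq2 also called neither gene. With libraries scaled to their totals alone, both genes were called lower in experiment 1, at -0.55 for Hip1 and -0.39 for Hip1r, where that scaling moved the median of all genes to -0.42.

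Input RNA of the lines differed in a smaller way. In experiment 1 tagged cells held less Hip1 RNA than untagged cells, 27.4 ± 3.83 against 37.6 ± 1.92 CPM (n = 3). The log2 change was -0.46 (SE 0.10, edgeR adjusted p 0.00662), and without tagged input replicate 2, the lowest library, it was -0.35 and not called (edgeR adjusted p 0.0614). In experiment 2 the change was -0.23 (SE 0.16, edgeR adjusted p 0.631), with 36.95 ± 5.27 against 43.4 ± 2.11 CPM (n = 3). Hip1r changed by -0.03 (SE 0.09, edgeR adjusted p 0.887) and 0.07 (SE 0.13, edgeR adjusted p 0.898). So 1 of the 2 genes was called lower in experiment 1, where 4.87% of all genes were, and neither was called in experiment 2, where 1.39% were. No member was under an unadjusted p of 0.05 there, nor called by DESeq2. Tagged input libraries of both experiments also entered contrasts that served the choice of the genes, so these tests are not independent of it.

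In the libraries labelled Trim71KO, Hip1r input RNA was higher than in tagged cells in both experiments. In experiment 1 it measured 27.3, 31.6 and 32.0 CPM against 21.2, 24.5 and 23.6, without overlap. The change was 0.39 (SE 0.09, 1.31-fold, edgeR adjusted p 0.00244). In experiment 2 the values were 39.7, 45.7 and 40.9 CPM against 34.8, 33.0 and 31.2, again without overlap. That change was 0.35 (SE 0.12, 1.27-fold, edgeR adjusted p 0.0378), and of 6 fits that left out in turn each library compared, only the one without Trim71KO input replicate 1 kept the call, with edgeR adjusted p of 0.0474 to 0.147 over the 6.

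Hip1 input RNA did not rise with Hip1r. It measured 23.4, 23.7 and 25.9 CPM in Trim71KO cells of experiment 1, with a change of -0.17 (SE 0.10, edgeR adjusted p 0.231). In experiment 2 it measured 27.6, 25.4 and 35.9 CPM, overlapping the tagged libraries, with a change of -0.32 (SE 0.16, edgeR adjusted p 0.151). Without Trim71KO input replicate 3, the highest library, that change was -0.48 and called (edgeR adjusted p 0.0495). Thus 1 of the 2 genes was called higher in each experiment, where 16.5% and 13.5% of all genes were, and 13.7% were called lower in experiment 2. The tagged and Trim71KO input libraries of both experiments also entered contrasts that served the choice of the genes. The summed primitive endoderm markers differed in the same comparison, going from 41.3 to 7.21 CPM in experiment 1, and their part in it was not tested.

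Trim71-dependent enrichment, which the choice of the genes used, was small in both experiments. In the Trim71KO IP of experiment 1, Hip1 measured 59.0, 55.4 and 53.8 CPM and Hip1r 29.4, 30.0 and 30.6. In experiment 2 they measured 46.2, 53.6 and 60.5 CPM and 43.3, 47.2 and 50.6 CPM. Both sets of Hip1 values overlap those of the tagged IP, whereas Hip1r lay above the tagged IP in both experiments, as it did in input. The change of IP over input was 0.03 (SE 0.15) and 0.14 (SE 0.23) for Hip1, and -0.22 (SE 0.13) and -0.14 (SE 0.18) for Hip1r, in experiments 1 and 2. Of all genes, 0.272% were called higher and 3.47% lower in experiment 1, and 0.753% and 0.738% in experiment 2. The comparisons of Trim71KO and of Ago2KO cells with tagged cells share the tagged libraries.

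**Figure D3:**
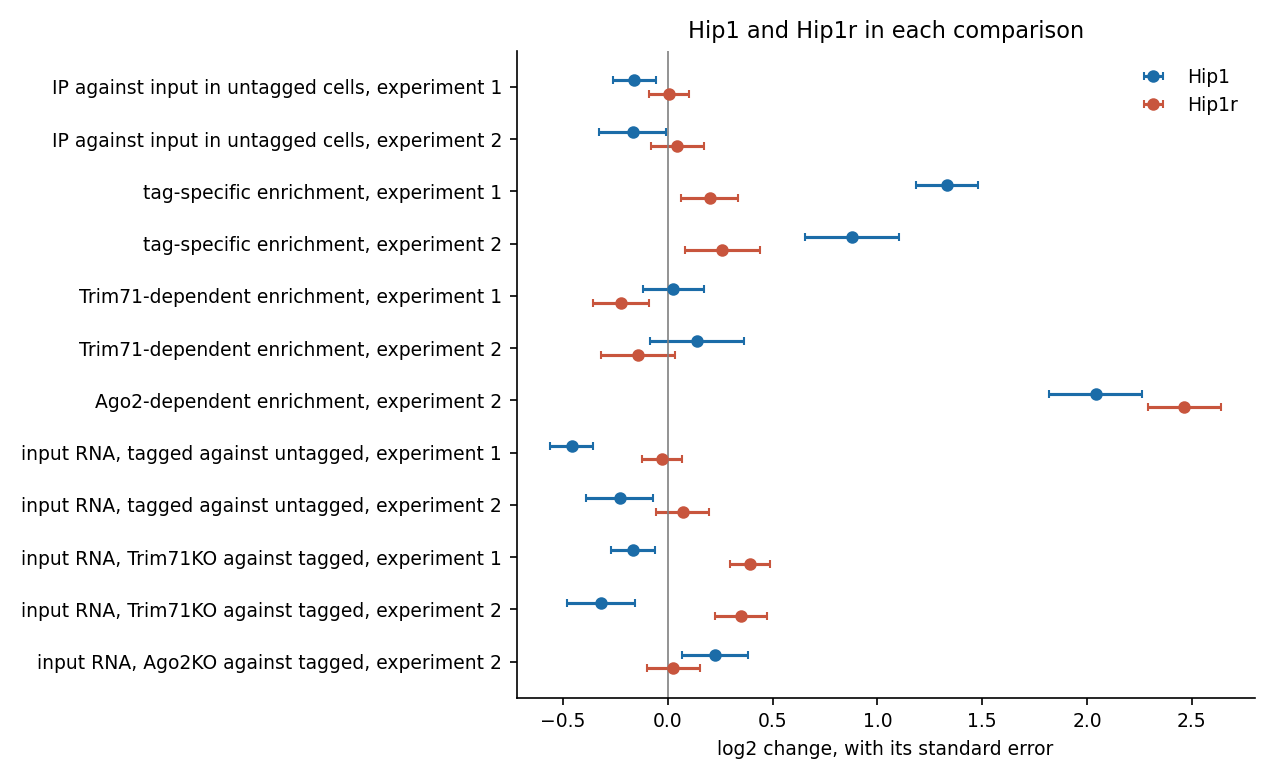
Log2 change of Hip1 (blue) and Hip1r (red) in 12 comparisons, with standard errors as bars. The Ago2-dependent values of 2.04 and 2.46 lie beyond all others. Tag-specific enrichment was called for Hip1 (1.33 and 0.88) and not for Hip1r (0.20 and 0.26), and the difference between the genes was not tested. The Ago2-dependent, Trim71-dependent and Ago2KO input values served the choice of the genes.

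The ratio of Hip1 to Hip1r counts within a library needs no scaling between libraries. In experiment 1 it was 0.953 to 1.46 in tagged input and 2.03 to 2.74 in tagged IP. In experiment 2 it was 0.958 to 1.35 in tagged input and 1.38 to 1.63 in tagged IP. Neither pair of ranges overlapped, with the balance on the side of Hip1 in the IP. Trim71KO cells had lower ratios in input, 0.752 to 0.86 and 0.555 to 0.879, and again higher ones in the IP, 1.76 to 2.0 and 1.07 to 1.2. In Ago2KO cells the input ratios were 1.3, 1.22 and 1.34 and the IP ratios 1.3, 1.32 and 1.16. These ranges overlap, unlike those of tagged and of Trim71KO cells. Both genes were chosen for a gain in these Ago2KO IP libraries, so a ratio near that of input follows in part from the choice. The untagged ranges were 1.32 to 1.48 in input and 1.04 to 1.34 in IP in experiment 2. No test was made of these ratios.

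**Figure D4:**
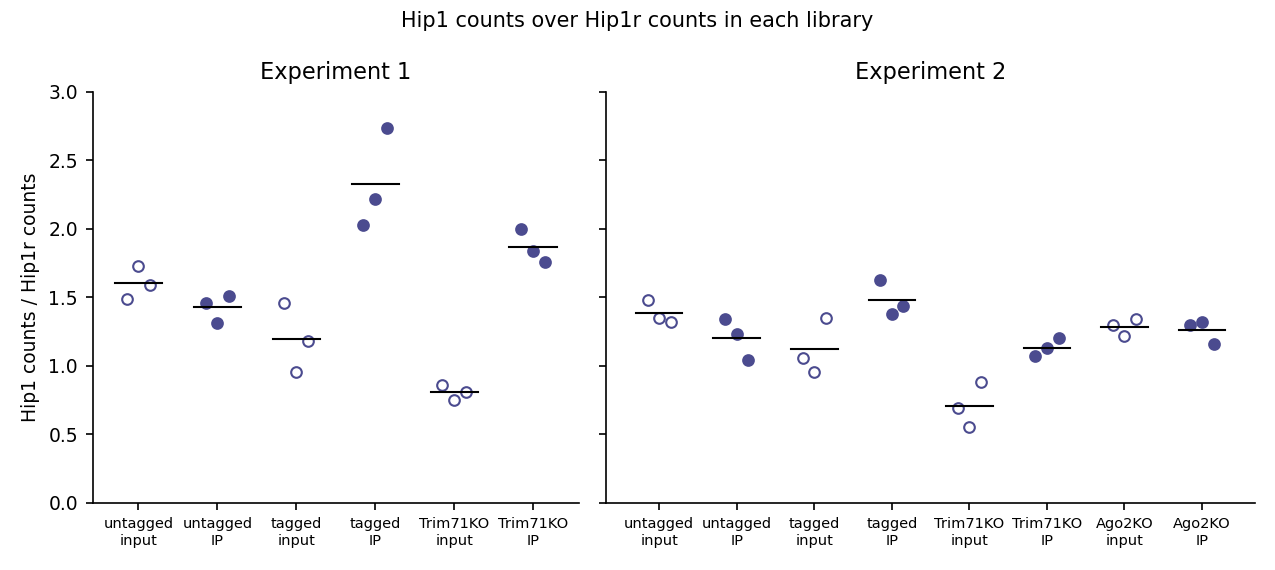
Hip1 counts divided by Hip1r counts in each library, for input (open points) and IP (filled points), with the group mean as a line. The tagged and Trim71KO IP libraries lie above their inputs, up to 2.74, while the Ago2KO input (1.22 to 1.34) and IP (1.16 to 1.32) overlap. Both genes were chosen for a gain in the Ago2KO IP libraries.

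Per length, Hip1r was the more abundant RNA in the input, with a ratio of Hip1 to Hip1r of 0.316 to 0.981 over all input libraries. Levels of different genes were compared on the authors' RPKM, which divide the counts by library size and gene length, with gene lengths of 12961 bases for Hip1 and 7369 for Hip1r in the deposited tables. In untagged input of experiment 1, Hip1 stood at 2.90 ± 0.149 and Hip1r at 3.19 ± 0.0943 RPKM (n = 3). In Ago2KO input they stood at 3.32 ± 0.085 and 4.54 ± 0.104. In the Ago2KO IP the levels were 22.3 ± 7.61 and 30.9 ± 9.23 RPKM. The order was turned in the tagged IP of experiment 1, at 4.75 ± 0.456 for Hip1 and 3.61 ± 0.247 for Hip1r, but not in that of experiment 2, at 4.73 ± 0.470 and 5.61 ± 0.214. A gene total cannot show which part of an mRNA the reads came from.

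HIP1 and HIP1R work within clathrin-mediated endocytosis, and 75 other genes of that pathway were listed in 7 groups by role. In experiment 2, 72 of them were tested, and in experiment 1, 71. For tag-specific enrichment 25 were called higher and 22 lower in experiment 1, 35.2% and 31.0% of them, where 28.1% and 28.8% of all genes were (edgeR). Their median change was 0.07, against -0.10 over all genes. In experiment 2, 15 were called higher and 4 lower, 20.8% and 5.56%, where 18.9% and 8.77% of all genes were. There the median was 0.09, against -0.03. With libraries scaled to their totals alone, the split in experiment 2 was 12 higher and 25 lower, with a median of all genes of -0.24. Without tagged IP replicate 3, 8 were called lower.

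Clathrin adaptors and initiators, the proteins that gather cargo and start a pit, were the group in which most genes were called higher. Of 19 tested, 11 (57.9%) were called higher and 4 (21.1%) lower in experiment 1, and 10 (52.6%) higher in experiment 2. The shares over all genes were 28.1%, 28.8% and 18.9%. Among those called higher in both were Epn1, Epn2, Eps15, Itsn2, Fcho2, Necap1, Aak1, Bmp2k and Reps2. Bmp2k, a kinase related to the AP-2 kinase Aak1, had a change of 3.25 in experiment 1 and 2.10 in experiment 2. Necap1, a protein that binds AP-2, had 3.25 and 2.02, and Itsn2, a scaffold of the pit, had 2.89 and 1.84. These exceed the values of Hip1, 1.33 and 0.88.

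The coat itself, clathrin chains and AP-2 subunits, had 7 of 8 genes called lower and 0 called higher in experiment 1, with a median of -0.73. Over all genes, 28.8% were called lower and 28.1% higher in experiment 1. Cltb, a clathrin light chain, had -0.82 there. The count of 0 called higher by edgeR was also 0 at an unadjusted p under 0.05 and 0 with DESeq2. In experiment 2 edgeR called only Ap2m1, the AP-2 mu subunit, lower, at -0.32 (SE 0.09, edgeR adjusted p 0.00663), where 8.77% of all genes were. At an unadjusted p under 0.05, 4 of the 8 coat genes were lower there, and with DESeq2 3 were called lower. Among the membrane-bending genes, Sh3gl1, which encodes an endophilin, had a change of 2.16 and 0.95, and Sh3gl2 and Snx18 were also called higher in both. That group had 4 of 13 (30.8%) called higher and 2 (15.4%) lower in experiment 1, and 3 (23.1%) higher in experiment 2. The shares over all genes were 28.1%, 28.8% and 18.9%. The call of Sh3gl2 in experiment 2 was lost under 3 of 7 other settings, and that of Snx18 under 1.

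Of the 12 genes that link coats to actin, 4 (33.3%) were called higher and 5 (41.7%) lower in experiment 1. In experiment 2 these counts were 1 (8.33%) and 2 (16.7%). Over all genes, 28.1% were called higher and 28.8% lower in experiment 1, and 18.9% and 8.77% in experiment 2. Wasl, an activator of the Arp2/3 complex, had 1.97 and 1.28, while the Arp2/3 subunits Actr2 and Arpc1b were called lower in both experiments. Of 7 cargo receptors, 3 (42.9%) were called higher and 1 (14.3%) lower in experiment 1, and 1 and 1 (14.3% each) in experiment 2. Fgfr1, an FGF receptor, was called lower in both, though in experiment 2 the call was absent in 5 of 12 fits without 1 library. Of 7 uncoating genes, 3 (42.9%) were called higher and 2 (28.6%) lower in experiment 1. In experiment 2 edgeR called 0, as it did at an unadjusted p under 0.05, and DESeq2 called 0.

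Relatives of HIP1 and HIP1R by domain were given side by side. Picalm, which shares the ANTH domain, had a tag-specific change of 0.02 in experiment 1 and -0.07 in experiment 2, and an Ago2-dependent change of 0.12 (SE 0.08). Snap91, of the same family, was called higher in experiment 1, at 1.02, but stood at -0.38 in experiment 2, where it was not called. Tln1, a talin with the same kind of actin-binding domain, was called lower in experiment 1, at -0.52, a call absent in 4 of 12 fits without 1 library, and stood at 0.24 in experiment 2, where it was not called. Htt, the huntingtin gene, had 0.26 and -0.09, and an Ago2-dependent change of 0.18 (SE 0.15). Talins and huntingtin partners had 0 of 5 genes called higher in experiment 1 and 0 of 6 in experiment 2 (edgeR). The shares over all genes were 28.1% and 18.9%. At an unadjusted p under 0.05 the counts of this group were 0 and 1, and with DESeq2 0 and 0.

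In the comparison of Ago2KO with tagged cells, few of these pathway genes were called higher. Of 72 tested, 1 was called higher (1.39%) and 5 were called lower (6.94%), where 0.384% and 3.77% of all genes were (edgeR). The median change was 0.00, as over all genes. The gene called higher was Arpc5, an Arp2/3 subunit, at 0.59 (SE 0.13, edgeR adjusted p 0.00653). Lower were Wasl at -0.84, Reps2 at -0.84, Epn1 at -0.81, Epn2 at -0.68 and Sh3gl1 at -0.56, all of which had been called higher with the tag. Without Ago2KO IP replicate 1, the count of lower calls was 8. The 8 coat genes, the 7 uncoating genes and the 6 domain relatives and huntingtin partners had 0 calls each, 0 at an unadjusted p under 0.05 and 0 with DESeq2. The cargo receptors had 0 calls, 1 at an unadjusted p under 0.05 and 0 with DESeq2.

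In cells labelled Trim71KO, few pathway genes were called for enrichment. In experiment 1, Bmp2k fell by 1.92 on the log2 scale and Itsn2 by 0.90, 2 of 71, where 3.47% of all genes were called lower. There 0 were called higher (4 at an unadjusted p under 0.05, 3 with DESeq2), against 0.272% of all genes. In experiment 2, Bmp2k again fell, by 0.99, and Pacsin3, a membrane-bending protein, fell by 0.53. Sh3gl1 rose by 0.58. The Pacsin3 call was absent in 9 of 12 fits without 1 library and that of Sh3gl1 in 5.

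**Figure D5:**
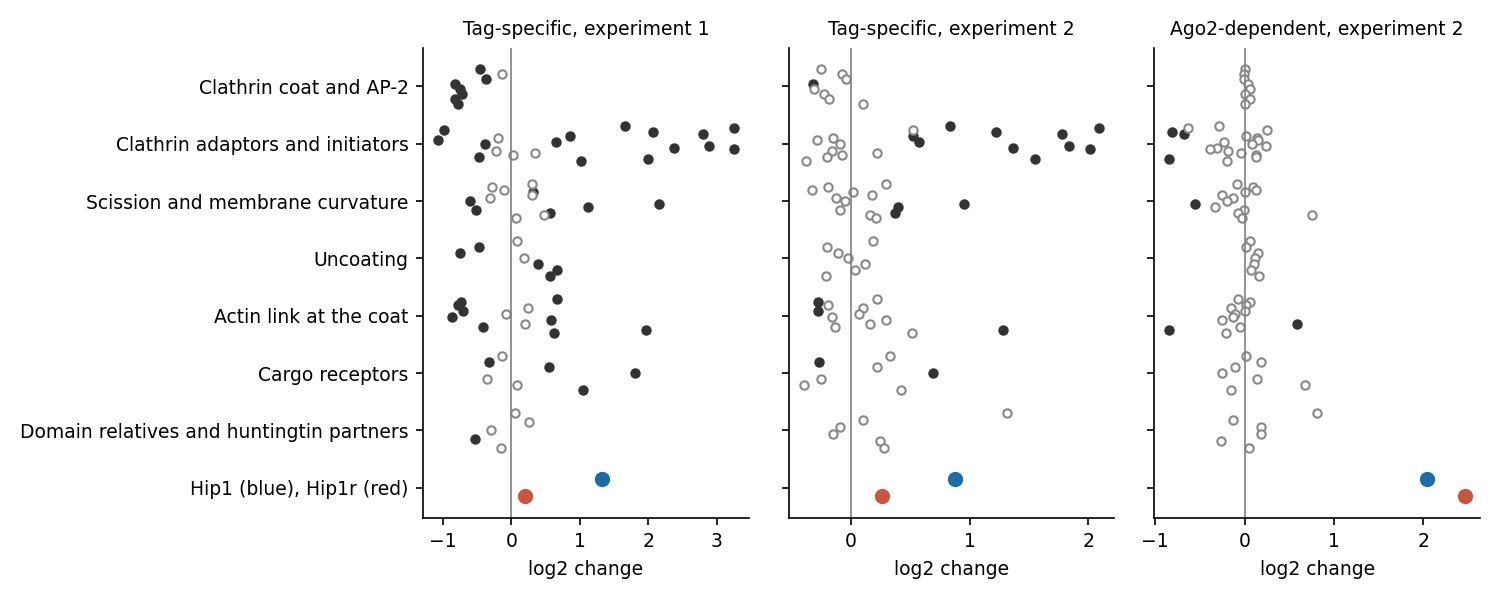
Log2 changes of the pathway genes by role (small points, filled where called by edgeR at an adjusted p under 0.05) and of Hip1 (blue) and Hip1r (red), for tag-specific enrichment in both experiments and Ago2-dependent enrichment. In the right panel Hip1 at 2.04 and Hip1r at 2.46, which were chosen on that comparison, lie beyond all points, of which Arpc5 at 0.59 is the only gene called higher.

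The genes most like each member were sought over the 12 IP libraries of experiment 2, among 11936 genes, by the Pearson correlation of the log2 IP level over the mean input of the same genotype. Libraries of a genotype share their input mean, so r is a description. The Ago2KO IP libraries, which served the choice of the genes, are among the 12. A high r between Hip1 and Hip1r therefore follows in part from that choice and is no separate result. Nearest to Hip1 were Senp6, a SUMO protease, at r = 0.988, Usp34, a deubiquitinase, at 0.968, Vps54 at 0.963, Arpc5 at 0.957 and Marchf9 at 0.954. Hip1r had Jak2, a tyrosine kinase, at 0.965, Efhc2 at 0.953, and Zfp7, Hip1 and Tcaim at 0.944 each. Hip1r in turn ranked in place 8 for Hip1.

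The gains of these genes were smaller than those of Hip1 and Hip1r. Senp6 ran from 106.5 to 114.5 CPM in the tagged IP and from 155.8 to 166.0 in the Ago2KO IP. Usp34 ran from 135.6 to 144.9 and from 225.0 to 255.2 CPM, and Jak2 from 16.7 to 19.1 and from 27.1 to 29.7. For these 3 genes the ranges did not overlap, nor did those of Vps54, Arpc5, Marchf9 and Efhc2. The search for like genes used the Ago2KO IP libraries, so this separation follows in part from it. Zfp7 ran from 83.3 to 85.5 CPM in the tagged IP, from 82.8 to 92.1 in the Ago2KO IP and from 93.9 to 98.0 in the Trim71KO IP, with no excess in the Ago2KO IP, and its input mean was 74.7 CPM in Ago2KO against 87.9 in tagged cells. Tcaim ran from 11.5 to 12.6 CPM in the tagged IP and from 13.6 to 16.1 in the Ago2KO IP, without overlap. Its untagged IP, at 12.2 to 13.9 CPM, overlapped the Ago2KO IP. The Ago2-dependent change of the 9 genes other than the members lay between 0.26 for Zfp7 and 0.74 for Marchf9. Efhc2 differed between the lines before any IP, with 9.98 CPM in untagged and 49.9 in tagged input.

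Neighbours of Hip1 and Hip1r on chromosome 5 were compared in the same way. The 3 nearest genes with a row on each side of both were tested, 12 in all. Next to Hip1, Rhbdd2 changed by 0.02, Por, the P450 reductase, by -0.12 and Pom121, a nuclear pore gene, by -0.08. Next to Hip1r, Ccdc62 changed by 0.58 (SE 0.39) at 2.13 CPM in the Ago2KO IP, Vps37b by -0.09, and Kntc1, a kinetochore gene, by 0.29 (SE 0.12, edgeR adjusted p 0.234). Of the 12, edgeR called 0, with edgeR adjusted p from 0.234 to 0.987. It called 0.384% of all genes higher and 3.77% lower in this comparison. At an unadjusted p under 0.05 there was 1, and with DESeq2 there were 0 among the 7 that it gave an adjusted p.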

How the data were processed

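RNA of 42 libraries was measured as read counts per gene. The authors deposited for each experiment a table of raw counts with RPKM values and a gene length per row, the name of which, per the file headers, refers to QuasR. The submitters' processing notes name bcl2fastq 2.20, STAR 2.7.3a and the builds GRCm38 and mm10, without their roles. The counting tool, annotation and use of strand are not given in the sources used here, so reads of overlapping genes may be shared. The kit was stranded, per the labels. Reads carry no stated molecular identifiers, so depth covers counting error only.

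Groups came from sample titles and experiments from sample descriptions. Counts were fitted per experiment with edgeR 4.0.16 (R 4.3.3): TMM scaling, filterByExpr, which left 18772 and 19778 genes, both Hip1 and Hip1r among them, 1 mean per group and quasi-likelihood F tests. Genes were called at an adjusted p under 0.05 (Benjamini-Hochberg, all tested genes). Enrichment contrasts are interactions of fraction (IP or input) and genotype. SEs are the size of the log2 change over the root of F. CPM values use the TMM-scaled library size, and log2 CPM a prior count of 2. The authors' RPKM served only to compare genes within libraries. The fit was tested on simulated data with known changes.

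The members and the gene lists were chosen with earlier results of these data known. Named genes follow a rule: Hip1 and Hip1r, the targeted genes, up to 3 called genes of each list and contrast by size of change, the 5 genes most correlated with each member, the 10 largest Ago2-dependent gains and the 3 nearest neighbours on each side. Genes called in both experiments, the domain relatives and the few list genes called in Trim71KO cells were named after their values were seen. Some genes counted in the lists are not reported here by name.

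Replicate numbers were checked by the correlation of deviations from group means over genes. In experiment 2 the numbers of tagged and Trim71KO cells paired in input (r of 0.206, 0.273 and 0.299) and in IP (0.318, 0.183 and 0.333). Numbers were called paired where r was over 0.1 for each replicate number. Of the other 10 pairs of genotypes in the same fraction none met this rule, nor did any of the 6 in experiment 1. Tagged and Ago2KO cells missed it through replicate 2 alone, with r of 0.577, 0.0657 and 0.416 in IP. In input their r was 0.22, 0.0031 and 0.217. Of IP and input of a genotype, 1 of 4 pairs in experiment 2 met the same rule, that of tagged cells (r of 0.104, 0.139 and 0.183), and 0 of 3 in experiment 1. The alternatives were DESeq2 1.42.0, RLE size factors, library size alone, no filter, only the groups compared, replicate blocks and leaving out each library.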

Additional observations from a re-analysis of the deposited data

How the results depend on the processing

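Of the values of Hip1 and Hip1r, 181 of 186 under other settings and 235 of 252 without 1 library kept their direction and their side of the threshold or, where no test was made, moved by less than the SD between replicates. Ago2-dependent enrichment ran from 1.98 to 2.14 for Hip1 and from 2.42 to 2.57 for Hip1r over 7 other settings. With libraries scaled to their totals alone, IP against input in untagged cells of experiment 1 turned for Hip1r, to -0.39 (edgeR adjusted p 0.00285), and was called for Hip1, at -0.55 (edgeR adjusted p 0.000249). That scaling moved the median of all genes there to -0.42, in tag-specific enrichment of experiment 2 to -0.24 and in Ago2-dependent enrichment to 0.11, where genes called higher made up 26.1% of the calls instead of 9.2%. In tag-specific enrichment of experiment 2 that share went from 68.4% to 36.5%. Under it, Hip1r input RNA in Trim71KO cells of experiment 2 stood at 0.28 (edgeR adjusted p 0.0716) and its Trim71-dependent enrichment in experiment 1 at -0.12. With only the groups compared, Hip1 input RNA in Trim71KO cells of experiment 2 was called at -0.32 (edgeR adjusted p 0.0397). Pathway genes called lower with the tag in experiment 2, 4 in number, came to 7 with DESeq2, 8 with RLE size factors, 25 with library size alone and 8 with a replicate block within fraction. The cause of these shifts was not tested.

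With the replicate number as a block, input RNA of Hip1r in Trim71KO cells of experiment 2, where the numbers paired, was 0.35 (edgeR adjusted p 0.041) and that of Hip1 was -0.32 (edgeR adjusted p 0.108). With a block of genotype and number, which ties each IP to the input of its number, tag-specific enrichment in experiment 2 was 0.88 for Hip1 (edgeR adjusted p 0.000784) and 0.27 for Hip1r (edgeR adjusted p 0.195). Neither block changed a call of either gene.

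Without 1 library at a time, Ago2-dependent enrichment ran from 1.76 to 2.22 for Hip1 and from 2.21 to 2.60 for Hip1r, and Ago2KO against untagged cells from 2.64 to 3.10 and from 2.47 to 2.87. In each, the lowest value left out Ago2KO IP replicate 1. Trim71KO against Ago2KO ran from -2.77 to -2.35 for Hip1r. Trim71-dependent enrichment ran from -0.043 to 0.19 for Hip1 in experiment 1, and for Hip1r from -0.27 to -0.075 and, in experiment 2, from -0.24 to -0.082. Input RNA in Trim71KO cells of experiment 2 ran from -0.48 to -0.21 for Hip1 and from 0.29 to 0.40 for Hip1r. In tagged against untagged input of experiment 1, Hip1 ran from -0.52 to -0.35. Pathway genes called lower ran from 5 to 8 in Ago2-dependent enrichment and from 3 to 8 in tag-specific enrichment of experiment 2. With 3 libraries a group, changes of the size of the SEs given above cannot be told from 0.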
